A study of Mus musculus with 8 samples.

Results

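Islets of Rescue mice were compared with islets of Control mice, to describe what still differed from Control after CDK4 had been activated in mice without IRS2, and what was new. The comparison takes 5 of the 8 islet RNA-Seq libraries of the study: 2 Rescue libraries (replicates 1 and 2), which carry *Irs2*-/- and *Cdk4*-R24C/R24C, and 3 Control libraries (replicates 1, 3 and 4), which carry *Irs2*+/+ and *Cdk4*-WT/WT. The other 3 libraries are Diabetic (*Irs2*-/-;*Cdk4*-WT/WT, replicates 1, 2 and 3). They share the *Irs2* deletion with Rescue and the wild type *Cdk4* with Control, and they are used to sort the differences. Control, Diabetic and Rescue stand for the libraries as labelled throughout. All mice were adult males. An altered allele, where carried, is present in every tissue, so that the islet, its vessels, its immune cells and the rest of the body of Rescue mice all carried both. The stock was crossed to C57BL/6N without extensive backcrossing, and littermates over several litters served as controls. Whether a library came from 1 mouse or from a pool was not stated, so each p-value measures only the spread between these libraries. Genes were kept when they reached 1 RPKM (reads scaled to the length of the gene and the size of the library) in at least 2 of the 5 libraries, which left 12380 of the 24123 genes in the table. Differences are on the log2(RPKM + 1) scale, which understates the change of genes with few reads, and a gene was called at an adjusted p under 0.05 in limma.

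IRS2 passes the signal of the insulin and IGF1 receptors on to PI3 kinase and AKT, which keep FOXO1 out of the nucleus and sustain growth and survival of β cells. CDK4 pairs with D cyclins, phosphorylates the RB family and thereby frees E2F factors, which switch on the genes of DNA replication. The R24C form of CDK4 no longer binds the INK4 inhibitors p16, p15, p18 and p19. An islet holds β cells (insulin), α cells (glucagon), δ cells (somatostatin), PP cells (pancreatic polypeptide), vessels, stroma and resident immune cells, and a library of whole islets averages over all of them.

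*Irs2* itself lies on chromosome 8 (ENSMUSG00000038894, chromosome 8, 10984681 to 11008458 of GRCm38). Reads over the whole gene gave 7.15 and 16.3 RPKM in Rescue 1 and 2 and 5.14, 10.96 and 6.74 in Control 1, 3 and 4, so the groups overlapped, and the difference was 0.52 (95% interval −0.35 to 1.38, adjusted p = 0.36). Which part of the gene gave these reads is not shown by a gene-level value, so it is no check of the deletion. *Cdk4* was at 42.4, 35.05 and 24.2 RPKM in Control and 41.5 and 30.9 in Rescue, a difference of 0.11 (interval −0.47 to 0.70, adjusted p = 0.781), and the value does not tell the wild type from the R24C transcript.

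The recovered depth was 10.3 to 14.3 M reads in genes per library. RNAs that stay in the nucleus (18 tested) were low in Control 4, Diabetic 2 and Diabetic 3, with a summed level of 1474, 957 and 308 RPKM in Control and 2216 and 1041 in Rescue. The β cell markers *Ins1*, *Ins2*, *Iapp* and *Slc2a2* summed to 193013, 177524 and 188374 RPKM in Control and 177926 and 139552 in Rescue, so that both groups were islet RNA. Lymphocyte genes stood high in both Rescue libraries, and the values are given with the results they accompany. Rescue 1 was lower than Rescue 2 in many β cell genes and higher in cell cycle genes, and the immediate early genes were highest in Rescue 2.

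Rescue differed from Control in 2280 genes called higher (18.4% of 12380) and 704 called lower (5.69%), and the median of all tested genes was 0.08. Both Rescue libraries lay above all 3 Control libraries for 4119 genes (33.3%) and below them for 2353 (19.0%). A gene could pass the filter through the 2 Rescue libraries alone and then had to be higher there: 991 genes passed with no Control library at 1 RPKM and 918 of them were called higher, while 181 passed with no Rescue library and 55 of them were called lower. This limit applies to each gene named below whose Control values, or whose Rescue values, are all under 1 RPKM. Of the 11066 genes at 1 RPKM or more in at least 2 Control libraries, 1229 were called higher (11.1%) and 704 lower (6.36%). Unless stated otherwise, counts of called list members below are to be read against these shares, or against 18.4% and 5.69% where all tested members are counted. The split depended on the scaling: 76.4% of the calls were higher with the deposited RPKM, 60.7% after median-of-ratios scaling (2067 higher, 1336 lower) and 51.8% after TMM scaling (1926 higher, 1795 lower), which moved the median of all genes to −0.02 and −0.09. No called gene changed its direction under any alternative. Rescue and Control did not overlap in any called gene, so leaving out a library could not change it. When the filter was applied again without Rescue 1, 565 genes were higher. Rescue 1 decided most of the lower calls, with 170 without it against 1771 without Rescue 2, and 411, 285, 345 and 446 without Control 1, Control 3, Control 4 and Diabetic 2.

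A called gene counted as still different when it was also called in the same direction in Diabetic against Control, and as new when it was not called there but was called in the same direction in Rescue against Diabetic. By this rule 49 genes (0.396% of those tested) were still higher, 137 (1.11%) still lower, 1975 (16.0%) new and higher, and 190 (1.53%) new and lower. The remaining 256 higher and 377 lower genes were neither, and 254 and 375 of them were called in neither of the other comparisons. The comparisons share the Control or the Rescue libraries, so these counts sort the genes and are no test. In Diabetic against Control only 167 genes were called higher (1.35%) and 298 lower (2.41%), and in Rescue against Diabetic 3043 higher (24.6%) and 693 lower (5.60%). Membership was unstable: only 5 of the 49 still higher and 5 of the 137 still lower genes stayed in their class when each of the 8 libraries was left out in turn, against 860 of 1975 new higher and 13 of 190 new lower genes. Without Diabetic 3 there were 381 still higher genes, and without Diabetic 2 there were 6 still higher and 6 still lower. The class is therefore given below beside the values themselves.

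**Figure D1:**
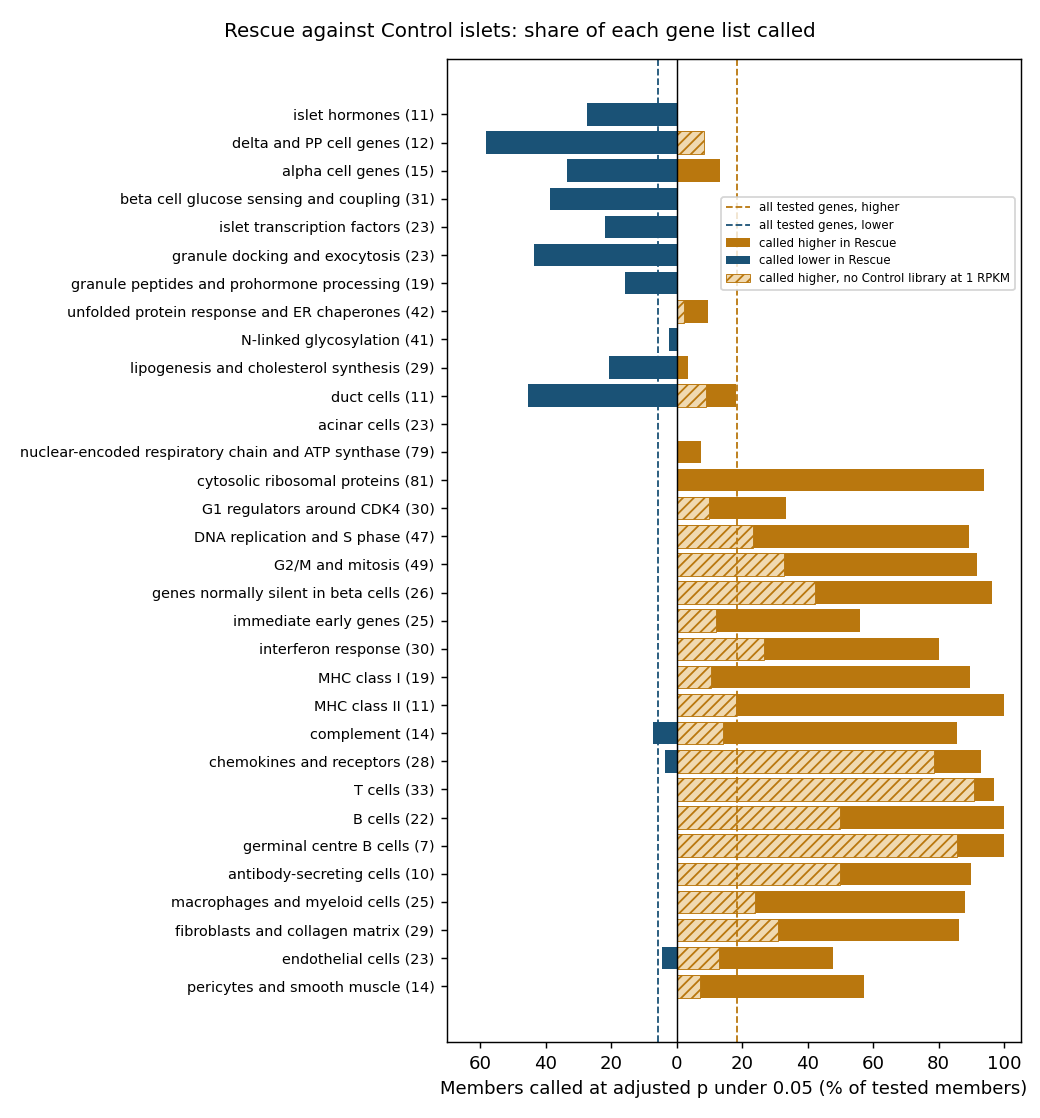
Share of the tested members of each gene list (number in parentheses) called higher (right, orange) or lower (left, blue) in Rescue against Control at an adjusted p under 0.05, in percent; dashed lines mark the shares over all tested genes, 18.4% higher and 5.69% lower. Hatched bars are the called members with no Control library at 1 RPKM, which passed the filter through Rescue alone. Endocrine lists reach to the left, while the cell cycle, immune, stromal and ribosomal protein lists reach to the right.

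The hormones of the rarer endocrine cells stayed lowest. *Ppy*, the hormone of PP cells (ENSMUSG00000017316, chromosome 11, 102099930 to 102101319 of GRCm38), was at 4677, 3907 and 3510.0 RPKM in Control 1, 3 and 4, 1982, 761 and 1228 in Diabetic 1, 2 and 3 and 266 and 380.0 in Rescue 1 and 2. Each Rescue library was below every Diabetic library, and each of those was below every Control library. Rescue minus Control was −3.65 (SE 0.37, adjusted p = 0.000409), Diabetic minus Control −1.70 (adjusted p = 0.0324) and Rescue minus Diabetic −1.94 (adjusted p = 0.00607). *Sst*, the somatostatin of δ cells (ENSMUSG00000004366, chromosome 16, 23889573 to 23890958 of GRCm38), had 2804, 4302 and 3689 RPKM in Control, 733, 770.0 and 904 in Diabetic and 506 and 308 in Rescue. Its 3 groups were also in separate ranges, with Rescue minus Control at −3.16 (SE 0.26, adjusted p = 0.000284) and Rescue minus Diabetic at −1.02 (adjusted p = 0.0213). In RNA of whole islets, fewer cells of a type and less RNA per cell cannot be told apart.

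Other genes of δ and PP cells followed, and 7 of 12 tested members of this list (58.3%) were called lower, against 5.69% of all tested genes. The list had 1 higher call and a median of −0.95 (−0.59 in Diabetic against Control). *Pyy*, peptide YY, was at 1205, 1249 and 1399 RPKM in Control, 1096, 692 and 865 in Diabetic and 416 and 349 in Rescue. Only the Rescue libraries were clear of Control at the threshold, with −1.75 (SE 0.21, adjusted p = 0.000692) against −0.56 (adjusted p = 0.13) in Diabetic, and Rescue was below Diabetic too (adjusted p = 0.00465). *Rbp4*, a retinol carrier that δ cells express, had 55.3, 86.4 and 72.1 RPKM in Control, 70.5, 79.5 and 57.3 in Diabetic and 23.6 and 17.5 in Rescue. Diabetic and Control overlapped for it while both Rescue libraries were lower, at −1.73 (SE 0.23, adjusted p = 0.000897). *Ghsr*, the ghrelin receptor of δ cells, was low everywhere, at 1.001, 1.26 and 0.761 RPKM in Control and 0.0186 and 0.0558 in Rescue, and was called at −0.94 (adjusted p = 0.00252). *Ghsr* had no Rescue library at 1 RPKM and passed the filter through Control alone, so that its call is partly fixed by the filter. The exception was *Lepr*, the leptin receptor, at 0.31, 0.422 and 0.588 RPKM in Control and 1.71 and 3.94 in Rescue (1.35, adjusted p = 0.0152, 0.0827 without Rescue 2). *Lepr* in turn had no Control library at 1 RPKM and passed through Rescue alone. The summed level of the list was 8824, 9628 and 8745 RPKM in Control, 3986, 2377 and 3119 in Diabetic and 1268 and 1133 in Rescue.

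Glucagon did not pass the test. *Gcg* was at 11150.0, 16916 and 14859 RPKM in Control and 5759 and 10603 in Rescue, a difference of −0.85 with an interval of −1.83 to 0.13 (adjusted p = 0.19). *Slc7a2*, an arginine transporter, had 55.9, 62.5 and 44.1 RPKM in Control and 14.8 and 34.2 in Rescue (−1.21, adjusted p = 0.0242), a call lost without Rescue 1 (0.144), Control 1 (0.0617) or Control 3 (0.0788). The amino acid transporter *Slc38a5*, which α cells switch on when glucagon signalling is blocked, was higher: 4.37, 4.27 and 4.26 RPKM in Control, 7.52 and 10.9 in Rescue and 32.5, 34.3 and 25.4 in Diabetic. It lay nearer to Control than to Diabetic (Rescue minus Diabetic −1.65, adjusted p = 0.00128) and remained called against Control at 0.92 (SE 0.19, adjusted p = 0.00775). Of the 15 tested α cell genes 5 were called lower and 2 higher, and without Control 1, Control 3 or Rescue 1 only 1 was lower.

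Insulin itself was not called. *Ins1* was at 69627, 58507 and 65115 RPKM in Control and 73364 and 51669 in Rescue (−0.06, interval −1.02 to 0.90, adjusted p = 0.931). *Ins2* was at 100534, 97164 and 102134 and 91046 and 69904 RPKM (−0.32, interval −1.23 to 0.58, adjusted p = 0.593). *Iapp*, the amyloid peptide that β cells release with insulin, was at 22744, 21689 and 20904 RPKM in Control, 44225, 42489 and 30570.1 in Diabetic and 13493 and 17926 in Rescue. It was lower in both Rescue libraries than in any Control library without passing the test (−0.48, adjusted p = 0.268), and lower than in Diabetic (−1.31, adjusted p = 0.0119). Of 11 tested islet hormones the 3 called lower were *Ppy*, *Sst* and *Pyy*, and 0 were called higher.

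β cells admit glucose through GLUT2, burn it in mitochondria, and the ATP formed closes potassium channels, which lets in the calcium that triggers release of insulin granules. Of 31 tested genes of glucose sensing and coupling, 12 were called lower in Rescue (38.7%, against 5.69% of all tested genes) and 0 higher, with a median of −0.63 (−0.58 in Diabetic, where 10 were called lower). The count depended on the libraries and the fit, with 3 lower under a block on the replicate number, 3 lower without Rescue 1, 7 without Control 3 and 12 without Rescue 2. *Slc2a2*, which encodes GLUT2 (ENSMUSG00000027690, chromosome 3, 28697903 to 28731359 of GRCm38), was at 108, 164 and 221 RPKM in Control 1, 3 and 4, 30.9, 40.6 and 35.4 in Diabetic and 23.3 and 54.5 in Rescue 1 and 2. Both Rescue libraries lay below all Control libraries and around the Diabetic ones. Rescue minus Control was −2.11 (SE 0.38, adjusted p = 0.00396), Diabetic minus Control −2.12 (adjusted p = 0.0194) and Rescue minus Diabetic 0.01 (adjusted p = 0.985). This call held without any 1 library, while the class of still lower was lost without Control 3, Control 4, Diabetic 1 or Diabetic 2.

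The other genes of this list called in both comparisons were *Hadh*, *Fkbp1b*, *Glul* and *Kcnj11*. *Fkbp1b*, a binding partner of the ryanodine receptor calcium channel, was at 71.1, 69.8 and 72.8 RPKM in Control, 23.05, 25.2 and 35.9 in Diabetic and 33.3 and 34.1 in Rescue, with no overlap of Rescue and Control (−1.06 (SE 0.18, adjusted p = 0.00336)). *Hadh*, a mitochondrial fatty acid enzyme that restrains insulin secretion in the absence of glucose, had 162, 185 and 193 RPKM in Control, 51.2, 59.5 and 83.6 in Diabetic and 75.1 and 97.4 in Rescue. Its difference was −1.06 (SE 0.22, adjusted p = 0.00796), and the call was lost without Rescue 1 (0.0743). *Glul*, glutamine synthetase, was at 136, 157 and 188 RPKM in Control and 75.1 and 104 in Rescue (−0.84, adjusted p = 0.011, 0.0756 without Rescue 1). *Kcnj11*, the pore of the ATP-sensitive potassium channel, had 55.3, 53.9 and 59.3 RPKM in Control and 27.1 and 39.97 in Rescue (−0.75, adjusted p = 0.0178, 0.0991 without Rescue 1 and 0.0572 without Control 4). None of these 4 was called between Rescue and Diabetic, where the adjusted p lay between 0.165 and 0.75.

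*G6pc2*, the islet glucose-6-phosphatase, and the zinc transporter *Slc30a8* were low in both genotypes without a Diabetic call. *G6pc2* was at 1896, 2465 and 2360.3 RPKM in Control, 718, 1108 and 1479 in Diabetic and 587 and 889.6 in Rescue, all Control libraries being above the rest (−1.62 (SE 0.32, adjusted p = 0.00602), 0.0666 without Rescue 1). *Slc30a8* had 498, 570.2 and 496 RPKM in Control and 142 and 346 in Rescue (−1.23, adjusted p = 0.0434), and the call was lost without Control 1 (0.0833), Control 3 (0.115), Control 4 (0.0867), Diabetic 2 (0.0707) or Rescue 1 (0.313). The incretin receptor *Glp1r* showed how far the Rescue libraries could part, at 67.2, 75.5 and 91.9 RPKM in Control and 10.8 and 49.6 in Rescue 1 and 2. Its call (−1.68, adjusted p = 0.0383) was lost without Rescue 1 (0.0852), Diabetic 2 (0.062), Diabetic 3 (0.052) or any 1 Control library (0.0641, 0.0878 and 0.101 without Control 1, 3 and 4).

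Several of the genes with the largest drop shared by both *Irs2*-/- genotypes have no place in the lists. Of these, *Kcnj12*, *Angptl7* and *Kcnf1* had no Rescue library at 1 RPKM. They passed the filter through Control alone, so that their lower values are partly fixed by it. *Kcnf1* and *Pde5a* lost the class of still lower without Control 3, Control 4, Diabetic 1 or Diabetic 2. *Kcnj12*, an inward rectifier potassium channel, was at 5.15, 4.93 and 4.42 RPKM in Control, 0.263, 0.2704 and 0.992 in Diabetic and 0.871 and 0.479 in Rescue (−1.81 (SE 0.23, adjusted p = 0.000824)). *Angptl7*, an angiopoietin-like secreted protein, had 6.26, 5.49 and 6.51 RPKM in Control, 1.01, 1.25 and 1.41 in Diabetic and 0.919 and 0.993 in Rescue. Its groups were tight and far apart, and Rescue minus Control was −1.85 (SE 0.16, adjusted p = 0.000284). *Gad1*, which makes the transmitter GABA, was at 23.5, 32.9 and 20.7 RPKM in Control, 1.602, 3.19 and 6.33 in Diabetic and 5.62 and 5.46 in Rescue, with the Rescue libraries inside the Diabetic range (−2.002 (SE 0.38, adjusted p = 0.00564)). *Vdr*, the vitamin D receptor, fell from 46.7, 61.8 and 83.1 RPKM in Control to 22.4 and 24.7 in Rescue (−1.36 (SE 0.23, adjusted p = 0.00276)), within the Diabetic values of 20.1, 21.7 and 25.2. *Kcnf1*, a silent subunit of voltage-gated potassium channels, was at 1.96, 8.82 and 7.99 RPKM in Control and 0.466 and 0.568 in Rescue (−2.08, adjusted p = 0.0105, 0.0849 without Rescue 1), with Control 1 nearest to Rescue. *Pde5a*, which breaks down cyclic GMP, had 38.8, 67.02 and 62.6 RPKM in Control and 11.7 and 18.01 in Rescue (−1.84, adjusted p = 0.00405, 0.0506 without Rescue 1).

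**Figure D2:**
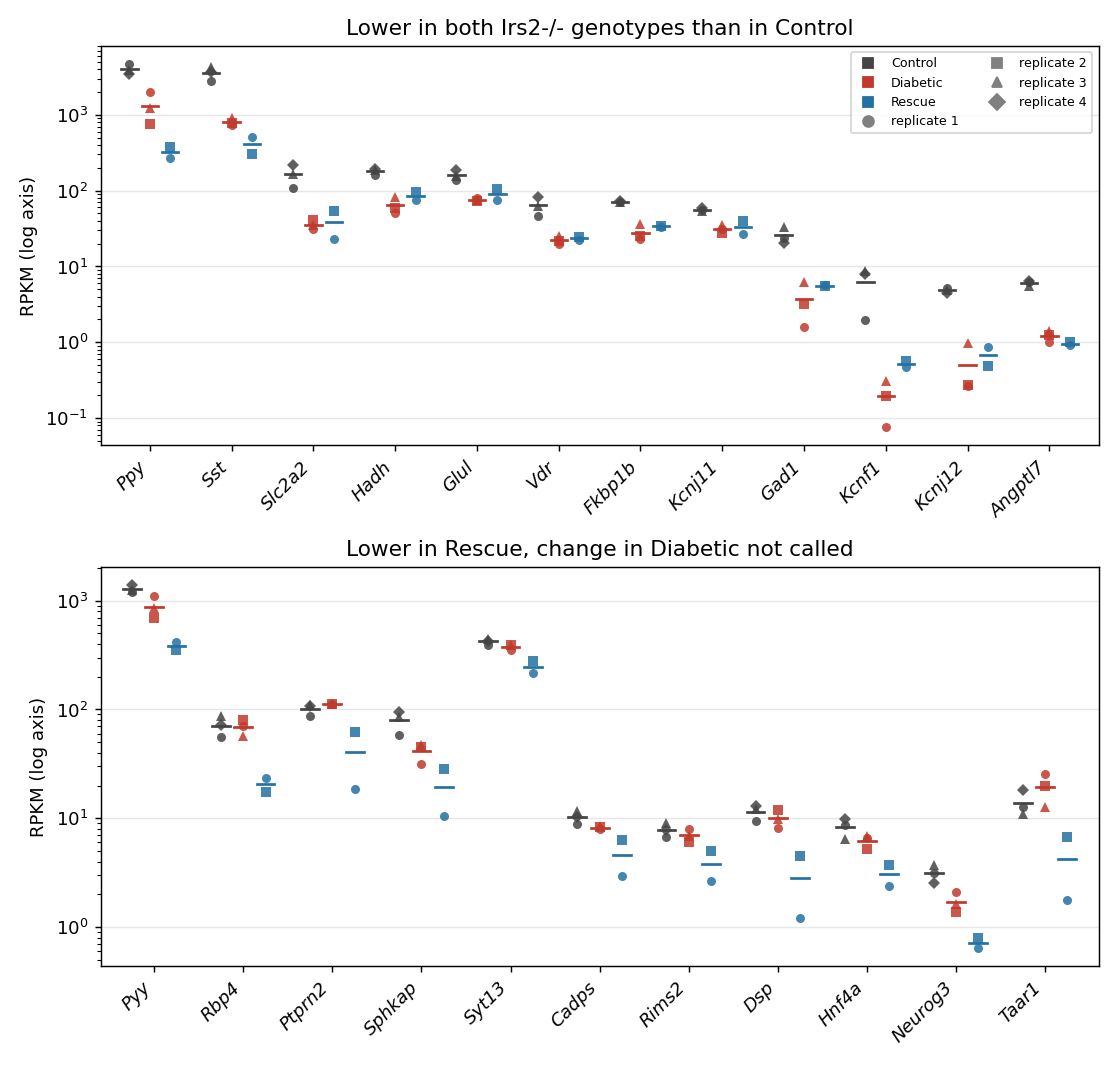
RPKM of single genes in each library on a log axis, with grey for Control, red for Diabetic and blue for Rescue; marker shape gives the replicate number and short bars the group means. In the upper panel both *Irs2*-/- genotypes lie below Control, as for *Slc2a2* with 23.3 and 54.5 RPKM in Rescue; in the lower panel Rescue lies below both other genotypes.

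The transcription factors that define mature β cells were not called. *Pdx1* was at 112, 64.3 and 114 RPKM in Control and 53.97 and 67.6 in Rescue (−0.63, interval −1.21 to −0.04, adjusted p = 0.111, 0.0141 without Control 3). *Nkx6-1* had 217, 167 and 279 RPKM in Control, 98.2, 95.1 and 99.1 in Diabetic and 219 and 107 in Rescue, with Rescue 1 at the Control level and Rescue 2 at the Diabetic level (−0.49, adjusted p = 0.274, 0.044 without Rescue 1). *Mafa*, the factor of mature β cells, was at 245, 145 and 206 and 53.9 and 141 RPKM (−1.14, interval −2.52 to 0.23, adjusted p = 0.208). The interval of *Mafa* is wide and includes 0, and the Rescue libraries were apart from each other. *Neurod1* differed by −0.48 (adjusted p = 0.0779, 0.0321 without Rescue 2, 0.0277 under TMM and 0.0458 under median-of-ratios scaling). *Ucn3*, a peptide of mature β cells, was at 336, 302 and 448 RPKM in Control, 85.97, 146 and 209.7 in Diabetic and 252 and 269 in Rescue, below every Control library but called only in Diabetic (−1.36, adjusted p = 0.0454, against −0.45, adjusted p = 0.363, in Rescue). *Foxo1* was at 11.9, 13.3 and 14.1 RPKM in Control, 9.53, 10.1 and 10.3 in Diabetic and 18.4 and 15.5 in Rescue, with both Rescue libraries above all others (0.35, adjusted p = 0.113, 0.0493 without Rescue 2).

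Of 23 tested islet transcription factors 5 were called lower (21.7%, against 5.69% of all tested genes) and 0 higher, with a median of −0.49 (−0.40 in Diabetic). Under TMM scaling 9 were lower, with a block on the replicate number 0, without Control 1 or Control 4 only 1 and without Rescue 1 or Diabetic 2 only 2. *Hnf4a*, whose human counterpart is mutated in a monogenic diabetes, was at 8.75, 6.46 and 9.78 RPKM in Control, 6.54, 5.22 and 6.91 in Diabetic and 2.395 and 3.75 in Rescue. The Rescue libraries were the lowest of the 8, with Rescue minus Control at −1.20 (SE 0.22, adjusted p = 0.00489) and Rescue minus Diabetic at −0.84 (adjusted p = 0.0239). *Neurog3*, the factor of endocrine progenitors, is not on this list but among the tested markers of failing β cells below. It had 3.13, 3.698 and 2.52 RPKM in Control, 2.12, 1.39 and 1.63 in Diabetic and 0.642 and 0.787 in Rescue, again lowest in Rescue (−1.25 (SE 0.19, adjusted p = 0.00158)). The calls of *Foxa2* (−0.63, adjusted p = 0.0276) and *Insm1* (−1.02, adjusted p = 0.0269), both broad endocrine regulators, were lost without Control 1 (0.0639 and 0.0611), Control 4 (0.0718 and 0.0694) or Rescue 1 (0.141 and 0.213), and that of *Foxa2* also without Diabetic 2 (0.0508).

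Markers that rise in failing β cells were mixed. *Aldh1a3*, an aldehyde dehydrogenase that marks dedifferentiated β cells, was at 1.71, 0.407 and 0.791 RPKM in Control, 19.04, 22.7 and 7.78 in Diabetic and 1.93 and 4.16 in Rescue. Both Rescue libraries lay above the Control range and below every Diabetic library, with Rescue minus Control at 1.04 (interval −0.01 to 2.08, adjusted p = 0.139) and Rescue minus Diabetic at −2.05 (adjusted p = 0.0121). Outside the tested list of such markers, the neuropeptide gene *Cartpt* was still higher, at 0.156, 0.123 and 0.33 RPKM in Control, 4.93, 3.71 and 4.33 in Diabetic and 2.13 and 2.45 in Rescue (1.46 (SE 0.17, adjusted p = 0.000549)), and Rescue was below Diabetic (adjusted p = 0.0162). The opioid precursor *Pdyn*, also outside the list, was at 20.8, 18.9 and 58.05 RPKM in Control, 345, 374 and 191 in Diabetic and 64.5 and 138 in Rescue. Its Rescue call (1.69, adjusted p = 0.0467) was lost without Control 1 (0.117), Control 3 (0.133), Diabetic 1 (0.054), Diabetic 2 (0.0658), Rescue 1 (0.0669) or Rescue 2 (0.218). The 8 members of the 20 tested markers called higher in Rescue include *Ldha* and *Hk1*, which are also on the list of genes silent in β cells, and *Bach2* and *Myc*, which lymphocytes express. Another 2 members were called lower and 10 in neither direction. The lower ones were *Neurog3* (−1.25, adjusted p = 0.00158), whose values are given above, and *Gc* (−0.84, adjusted p = 0.0372), also on the α cell list. The *Gc* call was lost without any 1 Control library or Diabetic 2.

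Of 23 tested genes of granule docking and release 10 were called lower (43.5%, against 5.69% of all tested genes), 0 higher and 13 in neither direction, and the median was −0.48 (−0.15 in Diabetic). Only 3 were called without Rescue 1 or Control 3, 5 without Control 1 or Control 4, 6 without Diabetic 2, 0 with a block on the replicate number and 11 without Rescue 2. The T cell list summed to 461 and 539.5 RPKM in the 2 Rescue libraries against 15.4, 21.03 and 16.7 in Control, and the part of immune, stromal and ribosomal protein RNA in the lower values of this and the other endocrine lists was not tested. *Syt13*, a synaptotagmin of endocrine cells, was at 396, 443 and 427 RPKM in Control, 352, 396 and 389 in Diabetic and 216 and 279 in Rescue, where both Rescue libraries were the lowest (−0.78 (SE 0.15, adjusted p = 0.00681)). *Rph3al*, a Rab effector on granules also called noc2, was at 38.8, 40.6 and 34.6 RPKM in Control, 22.1, 20.8 and 26.3 in Diabetic and 20.3 and 22.9 in Rescue with Rescue overlapping Diabetic and below all Control libraries (−0.79 (SE 0.15, adjusted p = 0.00538)). *Cadps*, which primes granules, had 8.94, 11.7 and 10.3 and 2.92 and 6.31 RPKM (−1.07, adjusted p = 0.0143, 0.0593 without Rescue 1 and 0.0539 without Control 3).

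Granule cargo moved in another way. Of 19 tested granule peptides and processing genes 3 were called lower in Rescue, with a median of −0.44, while the Diabetic median was 0.69 with 6 called higher. *Ptprn2*, a granule membrane protein and autoantigen, was at 86.5, 111 and 107 RPKM in Control, 113, 111 and 112 in Diabetic and 18.7 and 61.98 in Rescue, lowest in Rescue 1 (−1.53, adjusted p = 0.0236, 0.0701 without Control 3 and 0.062 without Control 4). *Scg2*, secretogranin II, had 2859, 2965 and 3226 RPKM in Control, 5218, 4924 and 4449 in Diabetic and 1135 and 2208 in Rescue. It lay above Control in all Diabetic and below Control in both Rescue libraries (−0.93, adjusted p = 0.0401), and the call against Control was lost without Control 1 (0.0821), Control 3 (0.0992), Control 4 (0.111), Diabetic 2 (0.074) or Rescue 1 (0.228). *Ica1l*, an islet autoantigen relative, was at 7.17, 8.43 and 10.7 RPKM in Control and 3.59 and 4.01 in Rescue, near the Diabetic 3.84, 3.19 and 3.93 (−1.01 (SE 0.18, adjusted p = 0.00459)). Without Rescue 2, 12 members were called lower, without Control 3 or Control 4 only 1, and under TMM scaling 9.

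Chaperones and folding enzymes of the endoplasmic reticulum were near Control. Of 42 tested genes of the unfolded protein response 4 were called higher (9.52%, below the 18.4% of all tested genes) and 0 lower, with a median of 0.01 against 0.51 in Diabetic, where 12 were higher. Without Rescue 2 there were 7 lower calls. *Hspa5*, the chaperone BiP, was at 389, 429 and 349 RPKM in Control, 592, 590.3 and 723 in Diabetic and 308 and 524 in Rescue, where the Rescue libraries lay on either side of Control (0.05, interval −0.48 to 0.58, adjusted p = 0.895). *Creld2*, a secreted stress protein, was still higher at 61.9, 51.4 and 48.5 RPKM in Control, 167, 200.3 and 128 in Diabetic and 99.3 and 99.7 in Rescue (0.88, adjusted p = 0.0123, 0.0661 without Rescue 1), and below Diabetic (adjusted p = 0.029). *Derl3*, a degradation factor, had 9.57, 4.29 and 6.59 RPKM in Control and 22.1 and 16.04 in Rescue (1.40, adjusted p = 0.0091, 0.0935 without Rescue 1), and antibody-secreting cells express both at high levels. *Txndc5*, a disulfide isomerase, was at 42.8, 44.7 and 41.3 and 60.9 and 66.2 RPKM (0.56 (SE 0.12, adjusted p = 0.00961)). Among 41 tested genes of N-linked glycosylation 1 was called lower and 0 higher, with a median of 0.03. Under TMM scaling 3 were called lower. The Rescue libraries lay on either side of Control, with sums of 1180 and 1420 RPKM against 1341, 1354 and 1353. The median was −0.09 without Rescue 2 and 0.08 without Rescue 1.

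Genes of immune cells rose in Rescue. The summed T cell level was 15.4, 21.03 and 16.7 RPKM in Control 1, 3 and 4, 70.9, 64.7 and 18.3 in Diabetic 1, 2 and 3 and 461 and 539.5 in Rescue 1 and 2. The summed B cell level was 9.497, 40.3 and 8.52 RPKM in Control, 202, 56.2 and 9.55 in Diabetic and 619 and 427 in Rescue. Both Rescue libraries stood above all others, Diabetic 1 and 2 were intermediate, Diabetic 3 was at the Control level, and Control 3 had more B cell RNA than the other Control libraries. Called higher were 32 of 33 tested T cell genes (34 in the table), 22 of 22 B cell genes (22), 9 of 10 genes of antibody-secreting cells (11) and 7 of 7 germinal centre genes (10). These counts are partly fixed by the filter and are read against no background, since 30, 11, 5 and 6 of the tested members had no Control library at 1 RPKM and passed through Rescue alone. Without Rescue 1, 10 B cell genes and 32 T cell genes were called.

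Both Rescue libraries were the highest of the 8 for each of the next genes. *Tcf7*, a transcription factor of naive T cells, was at 0.151, 0.627 and 0.0268 RPKM in Control, 1.71, 2.94 and 0.0594 in Diabetic and 39.2 and 43.03 in Rescue (5.08 (SE 0.48, adjusted p = 0.000352)). *Lck*, the kinase of the T cell receptor, had 0.181, 0.562 and 0.192 RPKM in Control, 1.76, 2.25 and 0.133 in Diabetic and 23.2 and 23.01 in Rescue (4.21 (SE 0.40, adjusted p = 0.000354)). *Thy1*, carried by T cells and by some stromal cells, was at 0.464, 0.733 and 0.586 RPKM in Control, 2.54, 2.7 and 1.64 in Diabetic and 21.7 and 21.4 in Rescue, with 3 separate ranges (3.83 (SE 0.19, adjusted p = 0.000192)). *Pou2af1*, a coactivator of B cells, had 0.02598, 1.41 and 0 RPKM in Control, 8.095, 5.51 and 0 in Diabetic and 70.7 and 50.9 in Rescue (5.50 (SE 0.84, adjusted p = 0.00187)). *Bcl6*, the repressor that programs germinal centre cells, had 0.682, 0.526 and 0.849 RPKM in Control, 1.13, 1.14 and 0.279 in Diabetic and 6.31 and 5.13 in Rescue (1.99 (SE 0.25, adjusted p = 0.000736)). *Jchain*, which joins secreted antibodies, reached 257 and 152 RPKM in Rescue against 0.2105, 1.21 and 0.474 in Control and 70.7, 15.3 and 0 in Diabetic, the largest difference of the comparison among named genes (6.97, adjusted p = 0.00749), and the call was lost without Rescue 1 (0.0773).

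Signals that guide lymphocytes were present too. *Cxcl13*, the chemokine that draws B cells into follicles, was at 0.2303, 13.2 and 0.5497 RPKM in Control, 38.5, 16 and 0.339 in Diabetic and 124 and 94.7 in Rescue. Its call (5.19, adjusted p = 0.0302) was lost without Control 1 (0.0805), Control 4 (0.0831), Rescue 1 (0.175) or Rescue 2 (0.0811). Its receptor *Cxcr5* had 0, 0.635 and 0 RPKM in Control and 13.6 and 13.9 in Rescue (3.65 (SE 0.53, adjusted p = 0.00143)). *Ccr7*, the receptor that takes T cells and dendritic cells to lymph nodes, was at 0, 0.317 and 0 RPKM in Control and 9.397 and 28.7 in Rescue, more in Rescue 2 (4.002 (SE 0.60, adjusted p = 0.0017)). *Glycam1*, a mucin of the high venules of lymph nodes, was at 0, 0.125 and 0 RPKM in Control, 48.8, 0.446 and 0 in Diabetic and 23.8 and 116 in Rescue. The *Glycam1* call (5.69, adjusted p = 0.0234) was lost without any 1 Control library (0.0543, 0.0583 and 0.056 without Control 1, 3 and 4) and without Rescue 1 (0.0659) or Rescue 2 (0.118). Of 28 tested chemokines and receptors 26 were called higher and 1 lower, but 22 of the 28 passed the filter through Rescue alone and 36 were in the table, so that the filter fixes much of this count. Whether lymph node tissue came with the islets, or lymphocytes were inside them, was not tested.

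Myeloid and antigen presentation genes rose in the same libraries. Among members at 1 RPKM or more in at least 2 Control libraries, which did not need Rescue to pass, 15 of 17 macrophage and myeloid genes, 6 of 6 MHC class II genes and 14 of 16 MHC class I genes were called higher, against 11.1% of all genes kept in this way (22 of 25, 11 of 11 and 17 of 19 of all tested members). *Cd74*, the invariant chain that escorts MHC class II, was at 49.6, 73.9 and 59.8 RPKM in Control, 251, 182 and 50.1 in Diabetic and 881 and 753 in Rescue (3.73 (SE 0.57, adjusted p = 0.00179)). *B2m*, the light chain of MHC class I, was at 64.2, 71.9 and 92.04 RPKM in Control, 211, 218 and 80.4 in Diabetic and 762 and 853 in Rescue (3.41 (SE 0.40, adjusted p = 0.000593)). Both genes put Diabetic 1 and 2 between the groups and Diabetic 3 with Control. *Lyz2*, the lysozyme of macrophages, had 5.33, 7.98 and 18.6 RPKM in Control and 468 and 394 in Rescue (5.38, adjusted p = 0.00524, 0.0544 without Rescue 1). *C3*, the central complement protein, was at 0.979, 3.63 and 1.41 RPKM in Control, 45.2, 38.01 and 3.33 in Diabetic and 197 and 236 in Rescue (6.27 (SE 0.90, adjusted p = 0.00136)). Of the 11 complement genes at 1 RPKM in 2 Control libraries 9 were called higher and 1 lower.

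**Figure D3:**
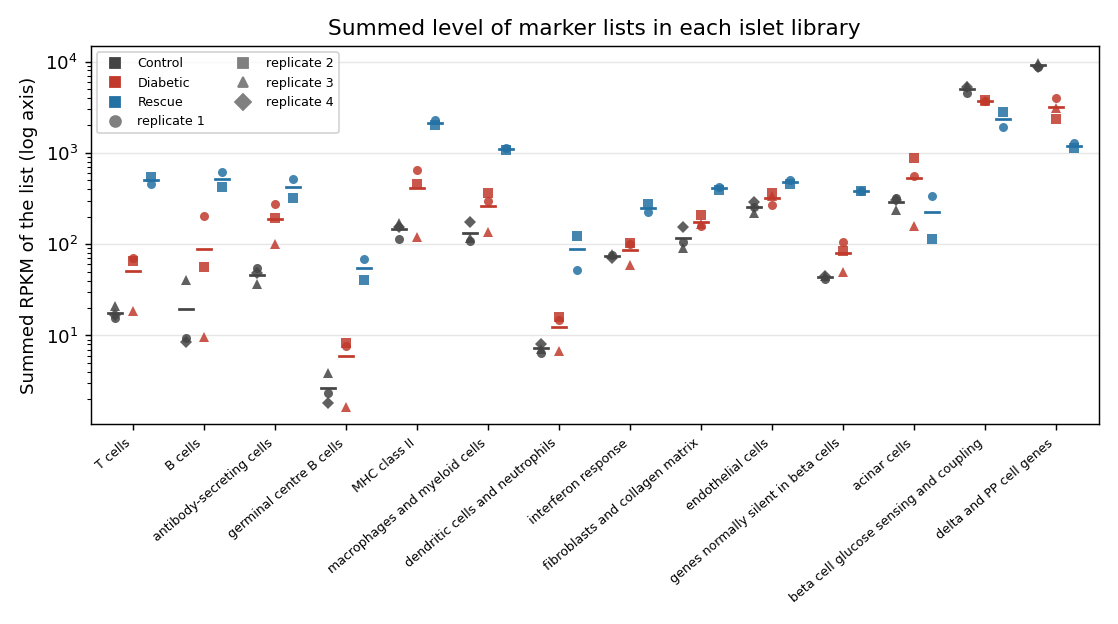
Summed RPKM of marker lists in each library on a log axis, with grey for Control, red for Diabetic and blue for Rescue; marker shape gives the replicate number and short bars the group means. T cell, B cell, MHC class II and macrophage lists are highest in both Rescue libraries and the δ and PP cell list is lowest there, while acinar RNA overlaps between the genotypes.

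Interferon switches on target genes through factors that bind a short repeat in their promoters. Of 30 tested interferon response genes 24 were called higher and 0 lower, and 12 of the 18 at 1 RPKM in 2 Control libraries. *Gbp2*, a guanylate-binding GTPase, was at 1, 1.06 and 1.81 RPKM in Control, 2.53, 9.16 and 1.67 in Diabetic and 18.7 and 22.2 in Rescue (3.24 (SE 0.49, adjusted p = 0.0017)), with Diabetic 1 and 2 between the groups. *Cxcl10*, a chemokine that attracts T cells, had 0.0294, 0.0696 and 0.156 RPKM in Control and 6.09 and 8.12 in Rescue (2.89 (SE 0.28, adjusted p = 0.000361)). The letters GAAA repeated after any 2 bases, searched on both strands from 250 bases before to 50 bases after the start of each gene in RefSeq (GRCm38.p6), were found in 15 of the 23 interferon genes that matched a promoter by symbol (65.2%), in 5 of 17 matched MHC class I genes (29.4%) and in 3.86% of the 9859 matched tested genes, and in 3.99% of all 27025 promoters. The 2 promoters are printed to show the repeat near the start of genes that rose in both Rescue libraries; a match of letters is a description and no sign of binding. They are the 300 bases of *Gbp2* (chr3:142620413-142620712, plus strand) and *Cxcl10* (chr5:92348840-92349139, minus strand), 5′ to 3′ on the strand of the gene, with the match in capitals (*Gbp2* on the opposite strand).
Gbp2: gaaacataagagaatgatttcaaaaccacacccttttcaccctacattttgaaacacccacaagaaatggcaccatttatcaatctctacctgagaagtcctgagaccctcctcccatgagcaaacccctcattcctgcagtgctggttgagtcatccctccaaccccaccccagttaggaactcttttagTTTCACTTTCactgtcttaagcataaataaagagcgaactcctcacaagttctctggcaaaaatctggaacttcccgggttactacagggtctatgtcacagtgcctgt
Cxcl10: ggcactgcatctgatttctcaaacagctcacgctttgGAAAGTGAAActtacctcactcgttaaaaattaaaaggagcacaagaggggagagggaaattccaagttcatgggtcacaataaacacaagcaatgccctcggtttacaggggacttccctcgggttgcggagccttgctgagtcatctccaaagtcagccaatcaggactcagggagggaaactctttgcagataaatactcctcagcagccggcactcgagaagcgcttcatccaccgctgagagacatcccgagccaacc

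Connective tissue and vessel genes were also higher. Of the members at 1 RPKM in 2 Control libraries, 8 of 10 fibroblast and collagen genes, 6 of 11 pericyte genes and 8 of 20 endothelial genes were called higher. Of all tested members these were 25 of 29, 8 of 14 (5 without Control 3) and 11 of 23, and 9, 2 and 3 had passed through Rescue alone. The endothelial list also had 1 member called lower (−1.10). *Dpt*, dermatopontin of the collagen matrix, was at 0.615, 0.409 and 0.856 RPKM in Control, 1.39, 1.24 and 0.497 in Diabetic and 26.4 and 33.8 in Rescue, with Diabetic overlapping Control (4.25 (SE 0.24, adjusted p = 0.000221)). *Vim*, the filament of mesenchymal and blood cells, had 2.16, 2.54 and 3.58 RPKM in Control, 9.94, 14.1 and 3.07 in Diabetic and 52.1 and 51.9 in Rescue (3.83 (SE 0.47, adjusted p = 0.000719)). *Des*, desmin of pericytes and muscle, was at 1.01, 0.772 and 0.861 and 10.3 and 9.22 RPKM (2.52 (SE 0.21, adjusted p = 0.000284)). *Pecam1*, an adhesion molecule of endothelium and leukocytes, was at 9.601, 7.81 and 10.3 RPKM in Control and 28.3 and 28.96 in Rescue (1.54 (SE 0.20, adjusted p = 0.000872)). Summed fibroblast RNA was 106, 91.4 and 153 RPKM in Control, 156, 208 and 167 in Diabetic and 424 and 391 in Rescue. Acinar RNA was not called in either direction in any of 23 tested genes, with 319.8, 236 and 309 RPKM summed in Control and 334 and 114 in Rescue.

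Several epithelial genes pointed the other way. The duct list as a sum stayed near Control, at 371, 363 and 364 RPKM in Control and 358 and 364 in Rescue. *Epcam*, an adhesion molecule of pancreatic epithelium, was at 77.6, 78.02 and 76.02 RPKM in Control, 98.5, 87.3 and 71.5 in Diabetic and 33 and 51.4 in Rescue (−0.89, adjusted p = 0.0136, 0.0829 without Rescue 1), below both other genotypes. *Krt8*, a keratin of simple epithelia, had 62.6, 62.3 and 56.7 RPKM in Control, 64.3, 64.5 and 68.1 in Diabetic and 38.4 and 42.1 in Rescue (−0.58 (SE 0.12, adjusted p = 0.00864)). *Dsp*, desmoplakin of cell junctions, was at 9.43, 12.1 and 13.1 RPKM in Control, 8.22, 11.8 and 9.88 in Diabetic and 1.22 and 4.47 in Rescue (−1.83 (SE 0.35, adjusted p = 0.00524)). Of 11 tested duct genes 5 were called lower and 2 higher, the higher ones being *Clu* and *Anxa1*, which other cell types express too, and 3 were lower without Control 1, Control 4, Diabetic 2 or Rescue 1. The lower duct genes were 45.5% of those tested, against 5.69% of all tested genes. The immune and stromal lists rose in the same 2 libraries, and their part in these lower values was not tested.

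Some genes are kept silent in β cells although most other tissues use them, and 25 of 26 tested genes of this kind were called higher in Rescue. Of these 26, 11 passed the filter through Rescue alone, and 11 of the 12 at 1 RPKM in 2 Control libraries were called. The count was 25 without Rescue 1 and 25 without Rescue 2. *Ldha*, lactate dehydrogenase A, was at 2.16, 2.41 and 2.33 RPKM in Control, 6.72, 8.06 and 3.603 in Diabetic and 38.03 and 33.9 in Rescue, with 3 separate ranges (3.48 (SE 0.26, adjusted p = 0.000273)). *Oat*, ornithine aminotransferase, had 2.92, 3.22 and 2.44 RPKM in Control, 13.7, 9.33 and 7.36 in Diabetic and 21.04 and 20.2 in Rescue (2.49 (SE 0.23, adjusted p = 0.000345)). *Hk1*, the hexokinase with high affinity for glucose, was at 0.962, 1.295 and 1.27 RPKM in Control, 1.48, 1.896 and 1.49 in Diabetic and 5.02 and 5.098 in Rescue (1.48 (SE 0.16, adjusted p = 0.00045)). *Arhgdib*, a gene of blood cells, had 1.94, 3.99 and 2.26 and 122 and 110.2 RPKM (5.01 (SE 0.78, adjusted p = 0.00197)), and *Cxcl12*, made by stroma, 0.664, 0.537 and 0.567 and 17.02 and 16.5 (3.48 (SE 0.36, adjusted p = 0.000428)). The list summed to 41.8, 44.6 and 44.5 RPKM in Control, 106, 83.5 and 49.8 in Diabetic and 387 and 384 in Rescue. Rescue was highest and Diabetic 1 and 2 came next, as in the T cell and macrophage lists, whose part in the result was not tested.

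Genes of DNA replication were higher in Rescue, most of them against both other genotypes. Of 47 tested S phase genes 42 were called higher and 0 lower, and 39 were new. Since 11 of them passed through Rescue alone, the 35 at 1 RPKM in 2 Control libraries are the fairer count, and 30 of these were called higher. *Mcm3*, part of the helicase that opens DNA for copying (ENSMUSG00000041859, chromosome 1, 20802968 to 20820312 of GRCm38), was at 1.91, 1.61 and 2.396 RPKM in Control, 2.89, 3.17 and 2.39 in Diabetic and 18.9 and 11.3 in Rescue (2.40 (SE 0.23, adjusted p = 0.000356)). *Mcm6*, of the same ring, had 3.76, 4.15 and 5.103 RPKM in Control, 3.86, 5.28 and 4.91 in Diabetic and 23.4 and 15.5 in Rescue (1.92 (SE 0.21, adjusted p = 0.000521)). Diabetic and Control overlapped for *Mcm6* while Rescue 1 and Rescue 2 were both far above, Rescue 1 the more so. *Rrm2*, which makes DNA precursors, was at 2.27, 2.26 and 2.46 RPKM in Control, 4.62, 3.76 and 4.22 in Diabetic and 18.2 and 11.4 in Rescue (2.21 (SE 0.20, adjusted p = 0.000319)). *Pcna*, the sliding clamp, rose from 14.4, 13.1 and 16.2 to 37.9 and 30.4 RPKM (1.17 (SE 0.16, adjusted p = 0.00115)). Without Rescue 1 24 of the list were called, without Control 3 31, and with a block on the replicate number 24.

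E2F factors bind promoters of many S phase genes. The letters TTTCCCGC or TTTGGCGC, on either strand of the same RefSeq windows, were found in 13 of the 38 S phase genes that matched (34.2%), in 5 of 23 matched G1 regulators (21.7%), in 2 of 41 matched mitosis genes (4.88%) and in 0 of 22 matched genes of glucose sensing. The share was 3.41% of matched tested genes and 1.80% of all 27025 promoters. Shown are 2 replication genes that hold the letters at 2 places each, 19 and 38 bases after the start for *Mcm3* (chr1:20820263-20820562, minus strand) and 110 and 47 bases before it for *Mcm6* (chr1:128359656-128359955, minus strand), and the window at the outer start of *Cdkn2a* (chr4:89294570-89294869, minus strand), where the ARF transcript begins and not the p16 transcript, which starts further in, in lower case with the matches in capitals.
Mcm3: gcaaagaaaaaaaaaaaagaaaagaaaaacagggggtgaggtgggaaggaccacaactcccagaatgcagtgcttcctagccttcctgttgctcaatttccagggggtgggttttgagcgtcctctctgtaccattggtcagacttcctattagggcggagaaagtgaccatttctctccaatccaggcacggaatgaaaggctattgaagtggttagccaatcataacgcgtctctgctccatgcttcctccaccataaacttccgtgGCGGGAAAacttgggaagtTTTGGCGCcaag
Mcm6: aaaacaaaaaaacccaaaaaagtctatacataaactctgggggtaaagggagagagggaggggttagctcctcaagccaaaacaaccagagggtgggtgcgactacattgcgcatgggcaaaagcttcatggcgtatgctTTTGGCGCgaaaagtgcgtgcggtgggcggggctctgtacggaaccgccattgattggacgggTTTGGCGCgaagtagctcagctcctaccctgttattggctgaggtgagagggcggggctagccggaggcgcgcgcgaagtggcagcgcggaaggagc
Cdkn2a: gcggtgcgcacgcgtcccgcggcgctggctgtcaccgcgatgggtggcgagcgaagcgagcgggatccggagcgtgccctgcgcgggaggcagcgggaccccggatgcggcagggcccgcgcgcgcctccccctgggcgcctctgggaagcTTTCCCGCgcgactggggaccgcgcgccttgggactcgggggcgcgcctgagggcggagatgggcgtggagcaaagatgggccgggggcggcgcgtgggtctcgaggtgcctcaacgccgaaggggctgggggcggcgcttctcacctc

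Mitosis genes rose likewise, 45 of 49 tested, all 45 of them new, and 23 of the 25 at 1 RPKM in 2 Control libraries (17 passed through Rescue alone). *Mki67*, the antigen Ki-67 of dividing cells, was at 4.01, 2.095 and 3.67 RPKM in Control, 2.799, 5.802 and 6.995 in Diabetic and 34.02 and 14.5 in Rescue (2.48 (SE 0.42, adjusted p = 0.003)). *Top2a*, which untangles chromosomes, had 3.46, 2.62 and 3.83 RPKM in Control and 22.6 and 12.9 in Rescue (2.09 (SE 0.33, adjusted p = 0.00231)). *Plk1*, a mitotic kinase, was at 1.42, 0.998 and 0.798 and 10.2 and 5.54 RPKM (2.06 (SE 0.28, adjusted p = 0.00113)). Rescue 1 was above Rescue 2 for each of these genes, and the summed level of the list was 98.2, 70.8 and 75.1 RPKM in Control, 66.1, 90.97 and 97.3 in Diabetic and 467 and 249.7 in Rescue. *Hmgb2*, a chromatin protein of dividing cells and lymphocytes, rose most, from 5.31, 4.54 and 3.16 to 65.6 and 30.1 RPKM (3.11 (SE 0.35, adjusted p = 0.000542)). Without Rescue 1 26 members were called. Germinal centre cells divide fast, and their list summed to 2.32, 3.87 and 1.81 RPKM in Control, 7.76, 8.25 and 1.66 in Diabetic and 69.3 and 40.5 in Rescue, also with Rescue 1 above Rescue 2; their part in the cell cycle values was not tested.

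**Figure D4:**
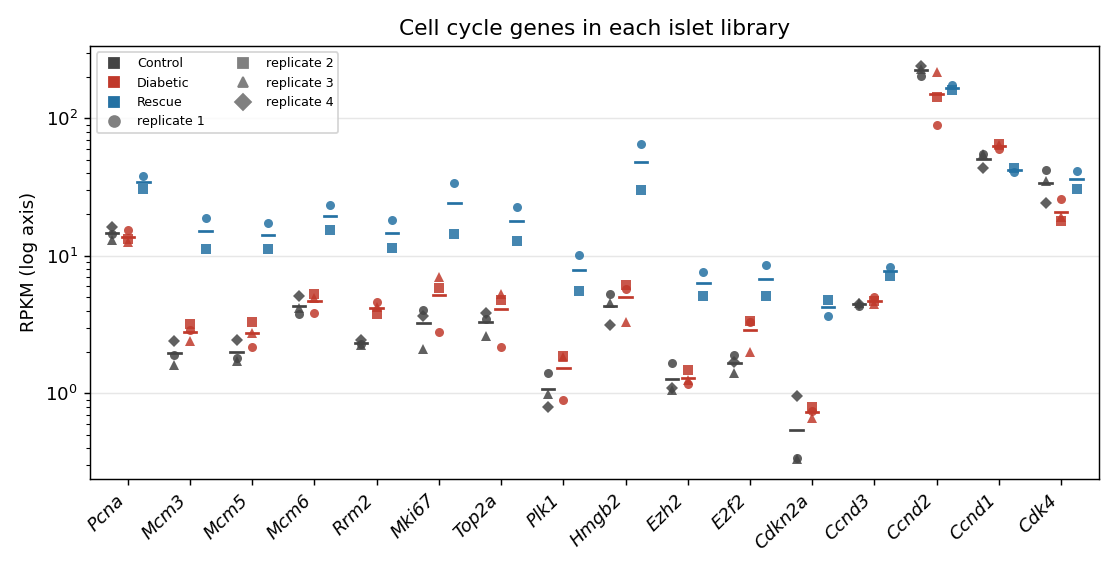
RPKM of cell cycle genes in each library on a log axis, with grey for Control, red for Diabetic and blue for Rescue; marker shape gives the replicate number and short bars the group means. Replication and mitosis genes, *Ezh2*, *E2f2* and *Cdkn2a* are above Control in both Rescue libraries, while *Ccnd1*, *Ccnd2* and *Cdk4* were not called.

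Regulators of G1 around CDK4 were mixed. Of 30 tested 10 were called higher and 0 lower, 6 of the 26 at 1 RPKM in 2 Control libraries were higher, and without Rescue 1 6 were. *Cdkn2a*, which encodes p16 and ARF (ENSMUSG00000044303, chromosome 4, 89274471 to 89294653 of GRCm38), was at 0.339, 0.334 and 0.959 RPKM in Control, 0.741, 0.793 and 0.665 in Diabetic and 3.67 and 4.78 in Rescue. Both Rescue libraries were well above the rest, with Rescue minus Control at 1.77 (SE 0.21, adjusted p = 0.000584) and Rescue minus Diabetic at 1.58 (adjusted p = 0.00158), and a gene-level value does not separate p16 from ARF. *Cdkn2a*, like *Cdk6* below, had no Control library at 1 RPKM and passed the filter through Rescue alone, so that its call is partly fixed by the filter. *Ezh2*, the methyltransferase that keeps *Cdkn2a* silent in young β cells, was at 1.67, 1.06 and 1.09 RPKM in Control, 1.17, 1.48 and 1.26 in Diabetic and 7.66 and 5.14 in Rescue (1.69 (SE 0.20, adjusted p = 0.000646)). *E2f2* had 1.899, 1.396 and 1.698 RPKM in Control and 8.51 and 5.15 in Rescue (1.53 (SE 0.24, adjusted p = 0.0023)), and *Cdk6*, the partner of D cyclins in blood cells, 0.137, 0.1905 and 0.191 and 1.69 and 1.602 (1.17 (SE 0.16, adjusted p = 0.00101)). *Ccnd3*, cyclin D3, was at 4.35, 4.56 and 4.46 RPKM in Control, 5.03, 4.67 and 4.503 in Diabetic and 8.26 and 7.19 in Rescue (0.67 (SE 0.14, adjusted p = 0.00837)).

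The D cyclins of the β cell did not follow. *Ccnd2*, the main D cyclin of mouse islets, was at 204, 229 and 242 RPKM in Control, 89.3, 143 and 218 in Diabetic and 174 and 161 in Rescue, below every Control library but not called (−0.42, interval −1.13 to 0.29, adjusted p = 0.367). *Ccnd1* had 54.9, 54.6 and 43.5 RPKM in Control and 40.4 and 43.5 in Rescue (−0.27, interval −0.59 to 0.06, adjusted p = 0.212). Of the inhibitors, *Cdkn2c* (p18) was called at 0.67 (adjusted p = 0.0439) and lost the call without Rescue 1 (0.25), Diabetic 2 (0.0735) or any 1 Control library (0.0984, 0.137 and 0.0655 without Control 1, 3 and 4). *Cdkn2d* (p19) was called at 0.82 (adjusted p = 0.0165, 0.128 without Rescue 1 and 0.0641 without Control 3). *Cdkn2b* (p15) differed by 0.43 (interval −0.11 to 0.98, adjusted p = 0.223), *Cdkn1a* (p21) by −0.31 (interval −1.06 to 0.43, adjusted p = 0.523) and *Cdkn1b* (p27) by −0.02 (interval −0.69 to 0.64, adjusted p = 0.963). Each of these 3 intervals includes 0.

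Most genes of the cytosolic ribosome were higher. Of 81 tested ribosomal protein genes 76 were called higher and 0 lower (median 1.03, 0.43 in Diabetic), and 6 were still higher and 49 new. The summed level was 10808, 10024 and 10804 RPKM in Control, 15474, 14815 and 13253 in Diabetic and 24455 and 18493 in Rescue, with all Diabetic libraries between the groups. *Rps15a* was at 18.1, 16.97 and 16.98 RPKM in Control, 25.7, 22.6 and 21.2 in Diabetic and 54.4 and 42.9 in Rescue (1.43 (SE 0.15, adjusted p = 0.000439)). Under TMM scaling 69 were called higher. Genes of this family have many processed copies in the genome, whose reads could be shared. Respiratory chain and ATP synthase genes gave 6 higher and 0 lower of 79 (median 0.25), and only 1 higher without Control 3, Control 4 or Diabetic 2. Their share called higher, 7.59%, was below the 18.4% of all tested genes. The 2 Rescue libraries parted, so that the count depends on which of them is used. The median was 0.41 without Rescue 2 and 0.11 without Rescue 1. The summed level was 4010, 3826 and 3894 RPKM in Control and 5119 and 4064 in Rescue 1 and 2.

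Of 25 tested immediate early genes 14 were called higher (10 of the 20 at 1 RPKM in 2 Control libraries), with a summed level of 231, 450.2 and 204 RPKM in Control, 590.1, 216 and 191 in Diabetic and 491 and 1175 in Rescue. Without Rescue 2 6 of them were called, and without Control 4 8 and Control 1 9. *Zfp36*, which destabilises messenger RNA, was at 5.401, 9.82 and 5.02 RPKM in Control and 38.4 and 86.6 in Rescue (2.97 (SE 0.60, adjusted p = 0.00704)). Lipid synthesis genes gave 6 lower and 1 higher calls of 29, and 0 lower without Rescue 1 or Control 1, 1 without Control 3 and 2 without Control 4. The lower calls were 20.7% of this list, against 5.69% of all tested genes. The only higher call was *Scd1*, a desaturase abundant in fat cells, at 0.739, 2.01 and 1.76 RPKM in Control, 6.86, 2.29 and 0.645 in Diabetic and 15.5 and 23.9 in Rescue (3.06 (SE 0.57, adjusted p = 0.00485)). Genes of insulin signalling other than *Irs2* gave 4 higher and 4 lower calls of 44, 0 lower without Control 1 or Control 4 and 11 under TMM scaling. Each direction was 9.09% of the list, against 18.4% higher and 5.69% lower over all tested genes. BCL2 family and p53 target genes were called higher in 14 of 24 tested and in 8 of the 18 at 1 RPKM in 2 Control libraries. The median was 0.80, and 0.87 without Rescue 1. The 1 lower call was *Bcl2l1* (−0.71, adjusted p = 0.0218). Among the higher ones were *Pmaip1* (2.75, adjusted p = 0.00111), *Fas* (2.09, adjusted p = 0.0011) and *Bcl2*, a survival factor that lymphocytes use. *Bcl2* was at 0.6798, 0.685 and 0.6596 RPKM in Control and 3.95 and 5.56 in Rescue (1.77 (SE 0.19, adjusted p = 0.000452)).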

How the data were processed

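Islet RNA of adult male mice was sequenced in 8 libraries by the authors, who aligned reads to mm10 with STAR, counted them per gene with HTSeq and normalised with edgeR (their versions: not given in the sources used here). They deposited 1 table of RPKM values. At low values these fall on steps of 1 read: 100% of the 18126 genes above 0 came out whole within 0.001 reads, which gave 10.3 to 14.3 M reads in genes per library. These recovered reads served only for depth and for an alternative limma voom test. No other sample columns were in the table.

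The genes that reached 1 RPKM in 2 or more of the 5 Rescue and Control libraries were fitted as log2(RPKM + 1) with limma 3.58.1 in R 4.3.3, with all 8 libraries in the fit (5 residual degrees of freedom), trended empirical Bayes, 2-sided tests and Benjamini-Hochberg adjustment over 12380 genes. The fit was tested on simulated data. Named genes were fixed by rank (the 10 largest called changes in each direction, overall and outside the lists, 8 per class, up to 6 per list) and by the genes the study names; *Fkbp1b*, *Kcnj11*, *Vdr*, *Hnf4a*, *Neurog3*, *Iapp*, *Pdyn*, *Cartpt*, *Creld2*, *Derl3*, *Slc38a5*, *Epcam* and *Vim* were chosen after their values were seen, and a few genes that the rule names are not reported here. The members and lists were chosen with earlier results of these data known. Gene coordinates are from the GENCODE annotation of GRCm38, promoters from RefSeq. Same-numbered libraries of different genotypes had deviations correlated at −0.27 to 0.38, the highest for Control 1 and Rescue 1. Libraries with different numbers were not compared in this way, so a pairing was not excluded. The numbers were not taken as pairs in the main fit. Alternatives were other pseudocounts, filters, scalings and covariates and leaving out each library. Plots used python 3.11.15 and matplotlib 3.10.9.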

Additional observations from a re-analysis of the deposited data

How the results depend on the processing

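The direction of every gene called in Rescue against Control was the same under all alternatives tried, while the counts moved. Much of this was fixed in advance. Rescue and Control did not overlap in any of the 2280 higher and 704 lower calls, so leaving out a library could not turn a sign. Neither could another filter or pseudocount. Only the scalings, the block, the covariate and the voom fit could have done so. Depth and 2 Rescue libraries limit what can be called for genes near 1 RPKM, and fits without 1 Rescue library assume that the lone library varies like the other groups. Against 2280 higher and 704 lower genes, a filter on a mean of at least 5 RPKM gave 868 and 437, a block on the replicate number 1250 higher and 132 lower, median-of-ratios scaling 1336 lower, TMM scaling 1795 lower, and the 5 libraries alone 455 lower. Leaving out each library gave 1589 to 2362 higher and 170 to 1771 lower calls. Of new genes, 1975 higher and 190 lower, the mean filter gave 719 higher, the block 1138 higher and 56 lower, median-of-ratios scaling 677 lower, TMM scaling 941 lower and a covariate of nuclear-retained RNAs 91 lower, and the range without each library was 1144 to 2072 higher and 21 to 1017 lower. Of genes still different, 49 higher and 137 lower, no filter gave 31 higher, the mean filter 88 lower, either scaling 97 higher and the block 9 higher and 14 lower, and the range without each library was 6 to 381 higher and 6 to 201 lower.

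A voom fit on the recovered reads gave 2303 higher and 687 lower genes. The alternatives chosen after seeing the data were leaving out Control 4, Diabetic 2 and Diabetic 3, which are low in nuclear-retained RNAs, and applying the filter again without a Rescue library. Without those 3 libraries 251 genes were lower, 844 new and higher, 13 new and lower, 109 still higher and 27 still lower. With the filter applied again without Rescue 1 there were 565 higher, 80 lower, 290 new higher, 8 new lower and 48 still lower genes, and without Rescue 2 there were 1318 higher, 1641 lower, 1023 new higher, 936 new lower, 74 still higher and 220 still lower. The cause of these changes was not tested, apart from the smaller number of genes or libraries.

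Signs changed only among genes that were not called. *Cdk4* became −0.0041 with median-of-ratios scaling, −0.085 with TMM scaling, −0.051 with the block, −0.092 with the covariate, −0.103 without the 3 libraries low in nuclear-retained RNAs and −0.093 without Rescue 1, and ranged from −0.10 to 0.32 without each library. *Hspa5* became −0.072, −0.155 and −0.031 with those scalings and the block and −0.024 without the 3 libraries, and ranged from −0.33 to 0.43. *Ins1* became 0.161 with the block and 0.081 with the covariate and ranged from −0.31 to 0.19 without each library. *Glrx* became −0.015 with TMM scaling (−0.017 to 0.28 without each library), *Cdkn1b* 0.0015 with voom (−0.43 to 0.39 without each library), and *Irs2* and *Nkx6-1* changed sign without Rescue 2 (−0.024 to 1.06 and −1.003 to 0.018 without each library).

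The labels do not state whether the replicate numbers pair the libraries, and a pairing was not excluded. Rescue and Control share only number 1, so that the fit with the replicate number as a block rests on few libraries. It kept 1241 of the higher and 117 of the lower calls. Of the lists it left 1 of 5 lower calls of α cell genes, 1 of 5 of duct genes and 0 of 6 of lipid synthesis, and 13 of 22 higher calls of B cell genes, 15 of 24 of interferon response, 4 of 14 of immediate early genes and 8 of 14 of BCL2 family and p53 target genes.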

Other observations

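Among genes on no list, several fell in Rescue. *Sphkap*, an anchor of protein kinase A, was at 58.5, 85.5 and 94.8 RPKM in Control 1, 3 and 4, 31.2, 45.6 and 47.4 in Diabetic 1, 2 and 3 and 10.5 and 28.2 in Rescue 1 and 2 (−2.11 (SE 0.38, adjusted p = 0.00441)). The 3 groups had separate ranges, with Rescue lowest, and the Diabetic difference of −0.92 was not called (adjusted p = 0.16). *Tmigd3*, an immunoglobulin domain protein, had 11.1, 8.19 and 14.9 RPKM in Control, 7.79, 8.46 and 7.64 in Diabetic and 3.99 and 1.29 in Rescue (−1.84 (SE 0.33, adjusted p = 0.00421)). *Anks4b*, an ankyrin repeat protein of the brush border, was at 13.7, 11.1 and 23.6 RPKM in Control, 6.28, 8.13 and 5.496 in Diabetic and 3.601 and 2.98 in Rescue, below Control in both genotypes (−1.93 (SE 0.29, adjusted p = 0.00174)). *Sult1d1*, a sulfotransferase, was at 26.01, 27.2 and 13.1 RPKM in Control and 1.18 and 6.299 in Rescue (−2.47, adjusted p = 0.0114, 0.105 without Rescue 1). *Taar1*, a trace amine receptor, had 12.6, 10.8 and 18.1 RPKM in Control, 25.4, 19.7 and 12.7 in Diabetic and 1.78 and 6.73 in Rescue (−1.65, adjusted p = 0.0258), and its call was lost without Control 1 (0.0533), Control 4 (0.076) or Rescue 1 (0.202).

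Several genes had higher values in Diabetic than in Control and higher values again in Rescue. *Gimap4*, a GTPase of lymphocytes, was at 6.09, 6.36 and 6.997 RPKM in Control, 22.5, 18.3 and 9.84 in Diabetic and 89.4 and 92.1 in Rescue (3.62 (SE 0.28, adjusted p = 0.000284)). *Ifitm3*, an antiviral membrane protein, had 8.89, 8.21 and 9.94 RPKM in Control, 20.2, 25.8 and 16.3 in Diabetic and 68.6 and 64.3 in Rescue (2.75 (SE 0.19, adjusted p = 0.00027)). *Rasgrp1*, an activator of RAS in T cells, was at 0.154, 0.252 and 0.151, 1.75, 0.913 and 0.779 and 8.41 and 9.53 RPKM in the same order (3.07 (SE 0.20, adjusted p = 0.00027)). All 3 groups were in separate ranges for these genes.

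The study also names *Hmgn3*, *Baiap3*, *Pfkfb2* and *Glrx* in islets, and none was called in Rescue against Control. *Hmgn3*, a nucleosome binding protein, was at 81.6, 75.7 and 70.05 RPKM in Control, 50.8, 28.5 and 32.2 in Diabetic and 67.9 and 49.1 in Rescue (−0.38, interval −0.95 to 0.18, adjusted p = 0.297). *Baiap3*, a regulator of dense-core vesicles, had 31.1, 44.96 and 18.8 RPKM in Control, 10.8, 5.38 and 6.69 in Diabetic and 14.8 and 15.99 in Rescue (−0.91, adjusted p = 0.1, 0.0278 without Control 4). *Pfkfb2*, which sets the pace of glycolysis, differed by −0.77 (interval −1.63 to 0.10) and the glutaredoxin *Glrx* by 0.16 (interval −0.42 to 0.74).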
